A study of Mus musculus with 24 samples.

Results

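The comparison described here sets the hippocampal RNA of 4 Tsc1-Cre+ mice taken on day 6, counted from the start of tamoxifen, before the first seizures of this model, against that of 4 Cre-negative littermate controls. These 8 libraries were chosen by their sample titles and are 8 of the 24 in the series, which has 6 groups of 4 mice. All mice, controls included, carried floxed Tsc1 on both chromosomes (Tsc1 fl/fl), were 16 to 22 weeks old and received tamoxifen on 4 days. Only the Tsc1-Cre+ mice also carried Tg(Camk2a-CreERT2), a transgene that places a tamoxifen-activated Cre recombinase, joined to an estrogen receptor domain, under the control of Camk2a, so by design Tsc1 is removed in CAMK2A-expressing neurons and kept in glia and vessels. The controls lacked Cre, so the presence of active Cre and the loss of Tsc1 cannot be told apart in this comparison. Whole hippocampus was sequenced as rRNA-depleted total RNA, and the authors deposited read counts per gene. The controls were taken on day 8, not on day 6.

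TSC1 and TSC2 form the complex that turns off the small GTPase RHEB, the activator of mTORC1. mTORC1 is a kinase on the lysosome surface that senses amino acids and growth factors. When active it raises protein synthesis, translation of the transcription factor ATF4, and processing of SREBP2, the transcription factor of the sterol pathway, and it keeps TFEB and TFE3, transcription factors of lysosomal genes, out of the nucleus. ATF4 drives genes for amino acid uptake and synthesis and for loading amino acids onto tRNA. In the hippocampus, loss of TSC1 is known for enlarged, hyperexcitable neurons and epilepsy.

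Total counts ranged from 50460565 to 62429111 over the 8 libraries. The groups differed in more than genotype. Counts from 4 Y-linked genes were present in 1 control (A) and in 3 day 6 mice (B, C and D), while Xist, the RNA of the inactive X chromosome, was at 650 to 1093 CPM in the other 3 controls and at 914 CPM in day 6 mouse A. CPM are counts relative to each library's total, after edgeR's TMM adjustment of that total. The deposited tables of the 2 groups also carried identifying numbers with different leading digits. What these numbers stand for is not given, and if they mark cohorts, cohort and genotype cannot be told apart. Ttr, a choroid plexus gene, ranged from 18.8 to 1535 CPM in controls and from 5.88 to 1033 CPM on day 6. Thalamus markers were highest in control D, with Prkcd at 89.2 CPM against 27.7 to 30.7 CPM in the other controls. Choroid plexus markers therefore came with some mice of both groups and thalamus markers mainly with 1 control, and their part in the results below was not tested beyond the values given.

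Of 25057 genes tested, 1564 were higher on day 6 (6.24%) and 955 lower (3.81%) at an adjusted p under 0.05 in edgeR's quasi-likelihood test, which is what "called", "rose" and "fell" mean below. With a log2 fold change over 0.5 in size as well, the definition of differentially expressed (DE), 162 genes were higher (0.647%) and 170 lower (0.678%). The median log2 fold change of all genes was −0.02. With Xist level as a further term in the model, the calls were 1311 in place of 2519, and 196 in place of 332 were DE. In 1 fit of all 24 libraries, edgeR gave 292 calls and 84 DE genes, and DESeq2 847 and 132. Without day 6 mouse C they were 1473 and 217.

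Tsc1, the targeted gene, was at 111.8, 104.9, 108.2 and 105.1 CPM in the controls and at 74.5, 75.1, 70.4 and 74.4 CPM on day 6. The groups did not overlap, and the level fell by 0.55 on the log2 scale (SE 0.04, adjusted p = 2.2e-06 by edgeR; exact permutation p = 0.0286, the smallest that 4 against 4 mice can give). On the scale of all 24 libraries, the mean was 78.4 ± 2.6 CPM (SD, n = 4) on day 4 and 72.5 ± 1.9 CPM on day 6, and this difference missed the threshold (adjusted p = 0.078). The reads are from whole tissue, in which other cells keep Tsc1 by design, and which cells gave the remaining reads was not tested. In bulk samples, fewer cells of a type and less RNA per cell cannot be told apart. Tsc2, its partner, was at a log2 fold change of 0.05 and Mtor at 0.02, neither called. Of 29 genes of the TSC complex and the mTORC1 core, 3 rose, among them Akt1s1, which encodes the mTORC1 inhibitor PRAS40, and Eif4ebp2, and 2 fell (Tsc1 and Igf1r). Over all genes tested 6.24% rose and 3.81% fell.

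Genes of the amino acid response rose far more often than they fell. Across its 6 lists 48 of 124 members tested rose and 4 fell, with a median log2 fold change of 0.12 against −0.02 over all genes. Of all genes, 6.24% rose and 3.81% fell. Among ATF4 and the stress regulators around it, 9 of 19 tested members rose, 7 of them DE, and none fell. Fgf21 and Gdf15, also listed, had too few counts to be tested.

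Chac1, which encodes an enzyme that breaks down glutathione, had the largest change of this list. It was at 2.02, 1.79, 2.35 and 2.37 CPM in the controls and at 6.95, 7.88, 9.51 and 5.24 CPM on day 6. Every day 6 mouse was above every control, the highest being mouse C and the lowest mouse D, and the log2 fold change was 1.80 ± 0.17 (SE, adjusted p = 3.1e-05). Sesn2, a leucine sensor that restrains mTORC1, went from 10.7, 12.1, 11.1 and 11.1 CPM to 21.7, 22.8, 24.1 and 19.4 CPM, with no overlap (log2 fold change 0.97 ± 0.07, adjusted p = 1.1e-05). Atf4 itself was at 48.8 to 56.7 CPM in the controls and at 73.1 to 85.8 CPM on day 6 (0.60 ± 0.05, adjusted p = 2.4e-05). Other members that rose were Eif4ebp1, a repressor of cap-dependent translation (log2 fold change 1.056), Atf5 (0.57), Ddit4, an activator of the TSC complex (0.55), Ddit3, which encodes CHOP (0.40), and Cebpg, a partner of ATF4 (0.19). Trib3, a pseudokinase that feeds back on ATF4, stood at 1.34 with an adjusted p of 0.045, its groups overlapped because day 6 mouse D had 0.229 CPM, and it was not called in 10 of 17 alternative fits, 6 of which left out 1 mouse. Atf3 was at −0.55 and was not called (adjusted p = 0.35). None of the 4 eIF2α kinases, Eif2ak1, Eif2ak2, Eif2ak3 and Eif2ak4, was called.

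Amino acid transporters followed the same direction, with 10 of 22 members higher, 5 of them DE, and none lower. Slc7a3, a carrier of arginine and lysine, went from 2.7, 2.95, 3.73 and 2.62 CPM to 5.96, 6.34, 10.3 and 4.26 CPM. Mouse C was again highest and mouse D lowest, and the groups did not overlap (1.162 ± 0.22, adjusted p = 0.0046). The other DE members were Slc7a1, a further carrier of cationic amino acids (0.57), Slc7a5, the large neutral amino acid carrier (0.53), Slc1a4, a carrier of serine and alanine (0.51), and Slc6a7, the brain proline carrier (0.50). Slc6a7 had narrow groups, 56.4 to 57.9 CPM in the controls and 78.8 to 83.3 CPM on day 6. Its gene lies beside Camk2a on chromosome 18, and what the Camk2a-CreERT2 transgene gives to its count was not tested. On the scale of all 24 libraries Slc6a7 was at 55.76 ± 0.68 CPM (SD, n = 4) in controls and 73.95 ± 5.2 CPM on day 4. In the rapamycin-treated Tsc1-Cre+ mice it was at 67.31 ± 9.3 CPM. Slc7a11, the cystine carrier, was at −0.21 and was not called.

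Of 22 enzymes that make serine, proline, asparagine and one-carbon units, 10 rose, 6 of them DE, and 2 fell. Mthfd2, the mitochondrial folate enzyme, rose from 4.46, 5.10, 5.27 and 4.60 CPM to 9.69, 11.5, 12.9 and 9.84 CPM (1.18 ± 0.10, adjusted p = 2.3e-05). Asns, asparagine synthetase, was at 56.1 to 58.4 CPM in the controls and at 85.3 to 109 CPM on day 6 (0.74 ± 0.06, adjusted p = 1.3e-05). The others that were DE were Aldh18a1 (0.61), which starts proline synthesis, Psph (0.59), the last enzyme of serine synthesis, and the serine hydroxymethyltransferases Shmt2 (0.55) and Shmt1 (0.53). Phgdh and Psat1, the first enzymes of serine synthesis, were at −0.15 and −0.13 and were not called. The members that fell were Glul, the glutamine synthetase of astrocytes (fell by 0.27), and Cbs (fell by 0.22), both of which are astrocyte genes in brain.

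The synthetases that load tRNA were counted by compartment. Of 20 cytosolic synthetase genes 16 rose and none fell, and all 20 had positive fold changes (median 0.26). Of 17 mitochondrial synthetase genes, 1 rose (Aars2, 0.20) and 1 fell, with a median of 0.03, beside 6.24% and 3.81% of all genes. Cars (0.55) and Gars (0.52) were DE, and Aars (0.44) and Iars (0.40) followed. Gars was at 90.5, 90.3, 88.3 and 91.0 CPM in the controls and at 127, 128, 144 and 118 CPM on day 6. The unfolded protein response showed little of this: 2 of 24 genes rose, Herpud1 (0.32) and Dnajb11 (0.21), and Hsp90b1 fell by 0.18. Hspa5, the main chaperone of the endoplasmic reticulum, was at −0.05 and Xbp1 at −0.04, neither called.

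The letters TGATGNAA, in which ATF4 and a C/EBP protein can bind side by side, were searched on both strands of RefSeq promoters of build GRCm38.p6, from 250 bases before to 50 after each start. Of 27025 genes with a promoter, 4.51% held them. Among the members with a promoter they were in 6 of 19 ATF4 and stress regulators, 2 of 15 transporters, 3 of 17 enzymes, 5 of 12 cytosolic synthetases, 0 of 14 mitochondrial synthetases and 1 of 20 genes of the unfolded protein response. The match describes letters only. The stretches around them are shown for 3 genes that rose and for 2 that hold the letters and were not called, with the element in capitals, read 5′ to 3′ on the strand of the gene, either as TGATGNAA or as its reverse complement.
Chac1 (chr2:119351039-119351066, plus strand, rose): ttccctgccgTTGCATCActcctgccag
Asns (chr6:7693215-7693242, minus strand, rose): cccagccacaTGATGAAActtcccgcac
Gars (chr6:55037961-55037988, plus strand, rose): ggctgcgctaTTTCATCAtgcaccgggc
Atf3 (chr1:191183426-191183453, minus strand, not called): cttctcgcacTTGCATCAccaagtccgc
Nupr1 (chr7:126625563-126625590, minus strand, not called): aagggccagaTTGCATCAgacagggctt
The same 7 fixed letters stood in promoters of genes that rose and of genes that did not. Of the 16 tested members that held them 11 rose and 5 were not called.

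**Figure D1:**
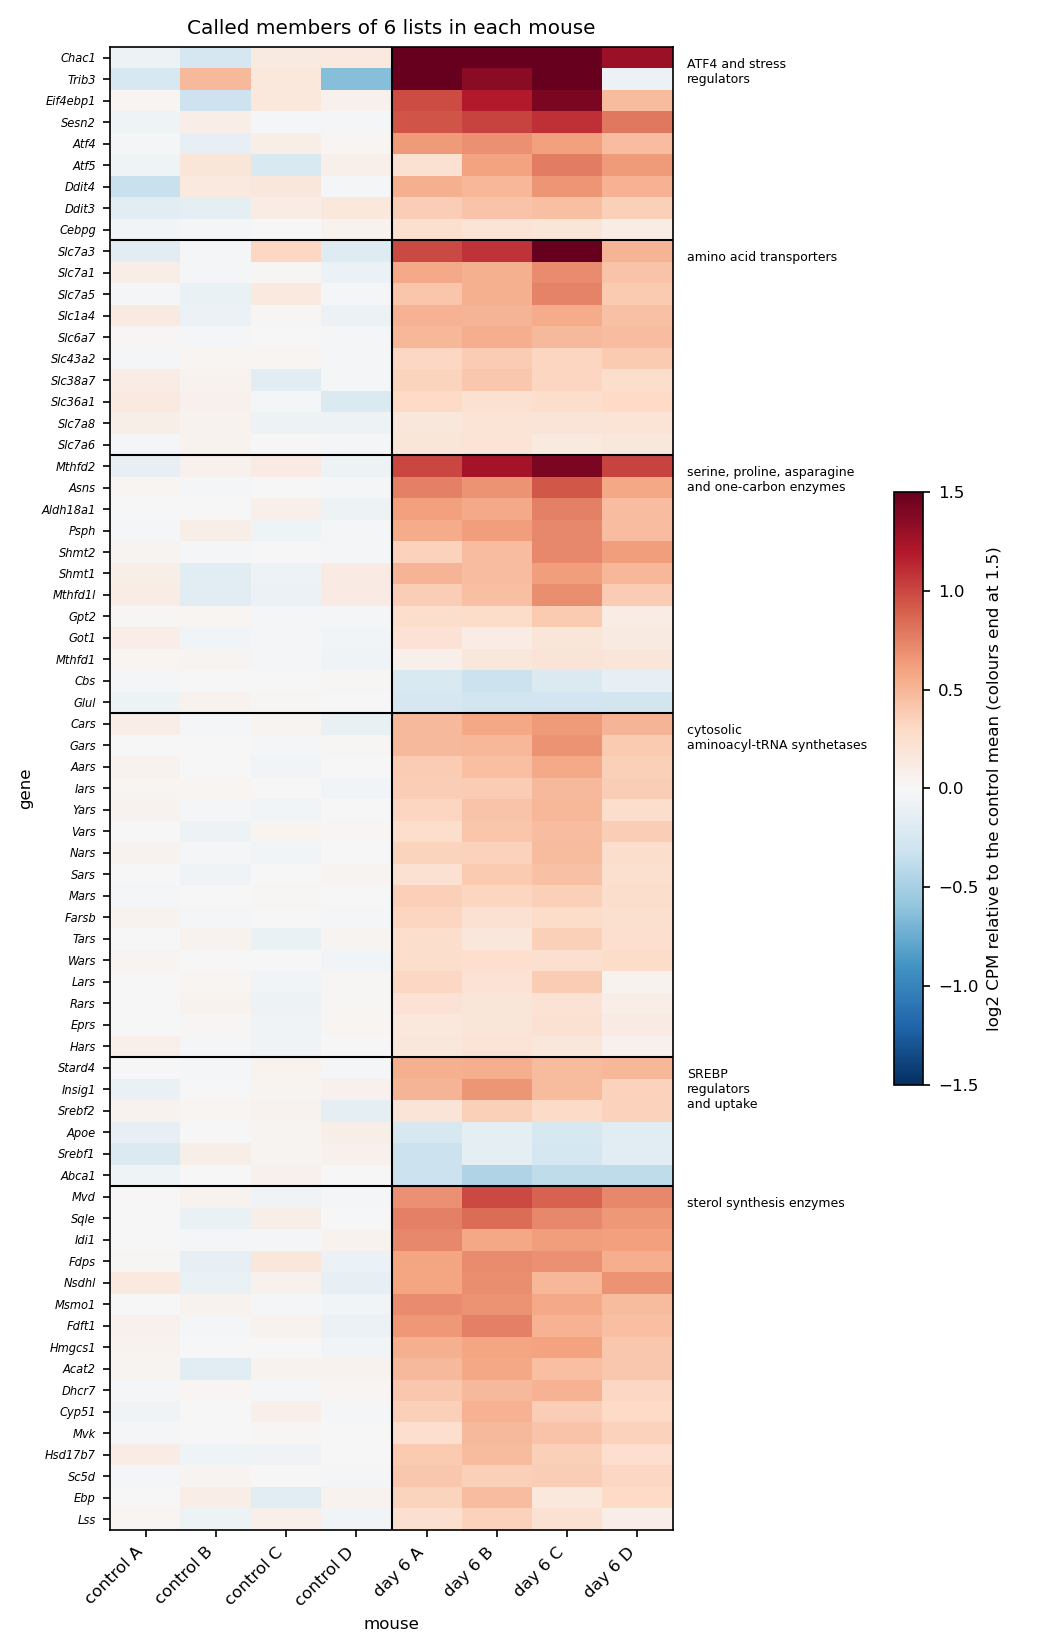
Called members of 6 amino acid and sterol lists (rows, 3 members not drawn) in each of the 8 mice (columns), coloured by log2 CPM relative to the control mean, with colours ending at 1.5. Members of the synthetase and sterol enzyme lists are red in all 4 day 6 mice, Glul, Cbs, Abca1, Apoe and Srebf1 are blue there, and Trib3 is near the control mean in day 6 mouse D.

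Most enzymes of the sterol pathway rose. Of 22 enzymes that build cholesterol from acetyl-CoA, 18 rose, 10 of them DE, and none fell, with a median log2 fold change of 0.46. The groups did not overlap for 18 of the 22, against 15.9% of all genes tested. The summed level of the 22 was 815 to 843 CPM in the controls and 1065 to 1197 CPM on day 6, so every day 6 mouse was above every control.

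Mvd, which makes isopentenyl diphosphate, had the largest change, from 9.11, 9.45, 8.77 and 8.96 CPM to 14.6, 18, 16.8 and 15 CPM (0.83 ± 0.08, adjusted p = 3.3e-05). Sqle, squalene epoxidase, went from 45.6, 42.6, 48.3 and 46.0 CPM to 77.4, 81.8, 75.5 and 71.7 CPM (0.75 ± 0.05, adjusted p = 2.2e-06). The spread within both groups was small beside the difference. Other DE enzymes were Idi1 (0.64), Fdps (0.63), Nsdhl (0.62), Msmo1 (0.61), Fdft1 (0.60) and Hmgcs1 (0.54). The enzymes not called were Pmvk (−0.10), Ggps1 (−0.06), Lbr (−0.01) and Tm7sf2 (0.14).

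Among 14 regulators and carriers of sterols, 4 rose and 3 fell. Stard4, a cholesterol carrier, went from 30.8, 30.6, 32.1 and 30.7 CPM to 45.1, 45.3, 43.2 and 43.9 CPM (0.52 ± 0.04, adjusted p = 1.4e-05). Every day 6 mouse was above every control, and both groups were narrow. Insig1, which holds SREBP in the endoplasmic reticulum (0.50), and Srebf2, which encodes SREBP2 (0.30), also rose. Abca1, the cholesterol exporter, fell by 0.38 (adjusted p = 4.9e-05), from 130 to 141 CPM in the controls to 99.4 to 108.3 CPM on day 6. Apoe fell by 0.20 and Srebf1 by 0.22, and the day 6 and control values of Srebf1 overlapped. Control A, the only control with Y-linked counts, had the lowest control level (60.2 CPM, others 72.2 to 74.5), and Srebf1 was not called in 9 of 18 alternative fits. Apoe is an astrocyte and microglial gene in brain, and markers of both cell types fell in these mice, as given below. Whether this bears on Apoe was not tested.

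The fatty acid branch moved little. Of 15 genes 5 rose and none fell, by 0.12 to 0.23 on the log2 scale (Acly, Fasn, Acss2, Elovl6 and Acaca), and none was DE. Scd1 and Scd2, the desaturases, were at −0.01 and −0.07 and were not called.
Of the promoters of sterol enzymes, 1 of 17 held TCACNCCAC, a sterol response element, against 1.44% of all genes. It was in 0 of 10 sterol regulators and carriers and in 0 of 12 fatty acid genes with a promoter. The pattern shares the letters TCAC with the E-box below. The enzyme with the element is Hmgcs1, which makes HMG-CoA, shown as the only holder in these lists. The other sterol enzymes that rose and have a promoter did not hold it.
Hmgcs1 (chr13:119690204-119690232, plus strand, rose): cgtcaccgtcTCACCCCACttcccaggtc

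In the lysosome, most genes of the proton pump rose and most hydrolases were not called. Over all genes, 6.24% rose and 3.81% fell. Of 18 subunits of the V-ATPase, which acidifies the lysosome and synaptic vesicles and docks mTORC1 regulators, 14 rose and none fell, by 0.17 to 0.39 on the log2 scale, and none was DE. Their summed level was 2920 to 3092 CPM in the controls and 3416 to 3547 CPM on day 6. Atp6v1b2 went from 363, 338, 334 and 326 CPM to 458, 437, 454 and 438 CPM (0.39 ± 0.04, adjusted p = 1.2e-04). Atp6v0b (0.35), Atp6ap2 (0.33) and Atp6v0c (0.28) followed, all with groups that did not overlap.

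Of 40 lysosomal hydrolases 9 rose and 4 fell, where 6.24% of all genes rose and 3.81% fell. The median of the hydrolases was 0.02. Gla, α-galactosidase (0.43), and Scpep1, a serine carboxypeptidase (0.31), were among those that rose. Ctss, a cathepsin of microglia, fell by 0.38, and Ctso (by 0.35), Ctsf (by 0.18) and Lgmn (by 0.14) also fell. Of 31 lysosomal membrane proteins and regulators of TFEB, 12 rose and none fell. Gpnmb, a glycoprotein of lysosomes and melanosomes, was the only DE member. It was at 5.59, 6.65, 6.78 and 5.83 CPM in the controls and at 16.1, 15.2, 14.4 and 14.4 CPM on day 6 (1.27 ± 0.08, adjusted p = 2.2e-06). The day 4 mice stood at 13.1 ± 4.2 CPM on the 24-library scale. Flcn (0.46), Fnip1 (0.43), Rragd (0.37), Rraga (0.33), Fnip2 (0.30) and Rragc (0.17) rose, so 3 of the 4 Rag GTPase genes and all 3 genes of the folliculin complex listed were higher. Rragb was at 0.06 and was not called. Clcn7, the lysosomal chloride exchanger (0.31), and Lamp2 (0.27) also rose, while Lamp1 (0.04), Npc1 (−0.09), Tfeb (−0.17) and Tfe3 (0.17) were not called.

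GTCACGTG, an E-box that TFEB and TFE3 can bind, was in 2.55% of all genes' promoters, in 8 of 32 hydrolases, in 6 of 28 membrane and regulator genes and in 2 of 13 V-ATPase subunits. Its reverse complement is CACGTGAC. It is shown for 3 genes that rose and for 2 that hold it and were not called.
Atp6v0b (chr4:117887350-117887377, minus strand, rose): gtgcgcggggGTCACGTGgggtcggcgc
Gla (chrX:134601184-134601211, minus strand, rose): tgagatctcgGTCACGTGagcaactctc
Clcn7 (chr17:25133364-25133391, plus strand, rose): tccgtcgtcaGTCACGTGggcaccgatg
Ctsd (chr7:142387908-142387935, minus strand, not called): gcccgcgtctCACGTGACccgttgaggg
Lamp1 (chr8:13159123-13159150, plus strand, not called): tgccgactggCACGTGACcacatcacgt
As with the ATF4 letters, the element was present in genes that rose and in genes that did not. Of its 16 holders in the lists 6 rose, 1 (Lgmn) fell and 9 were not called.

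**Figure D2:**
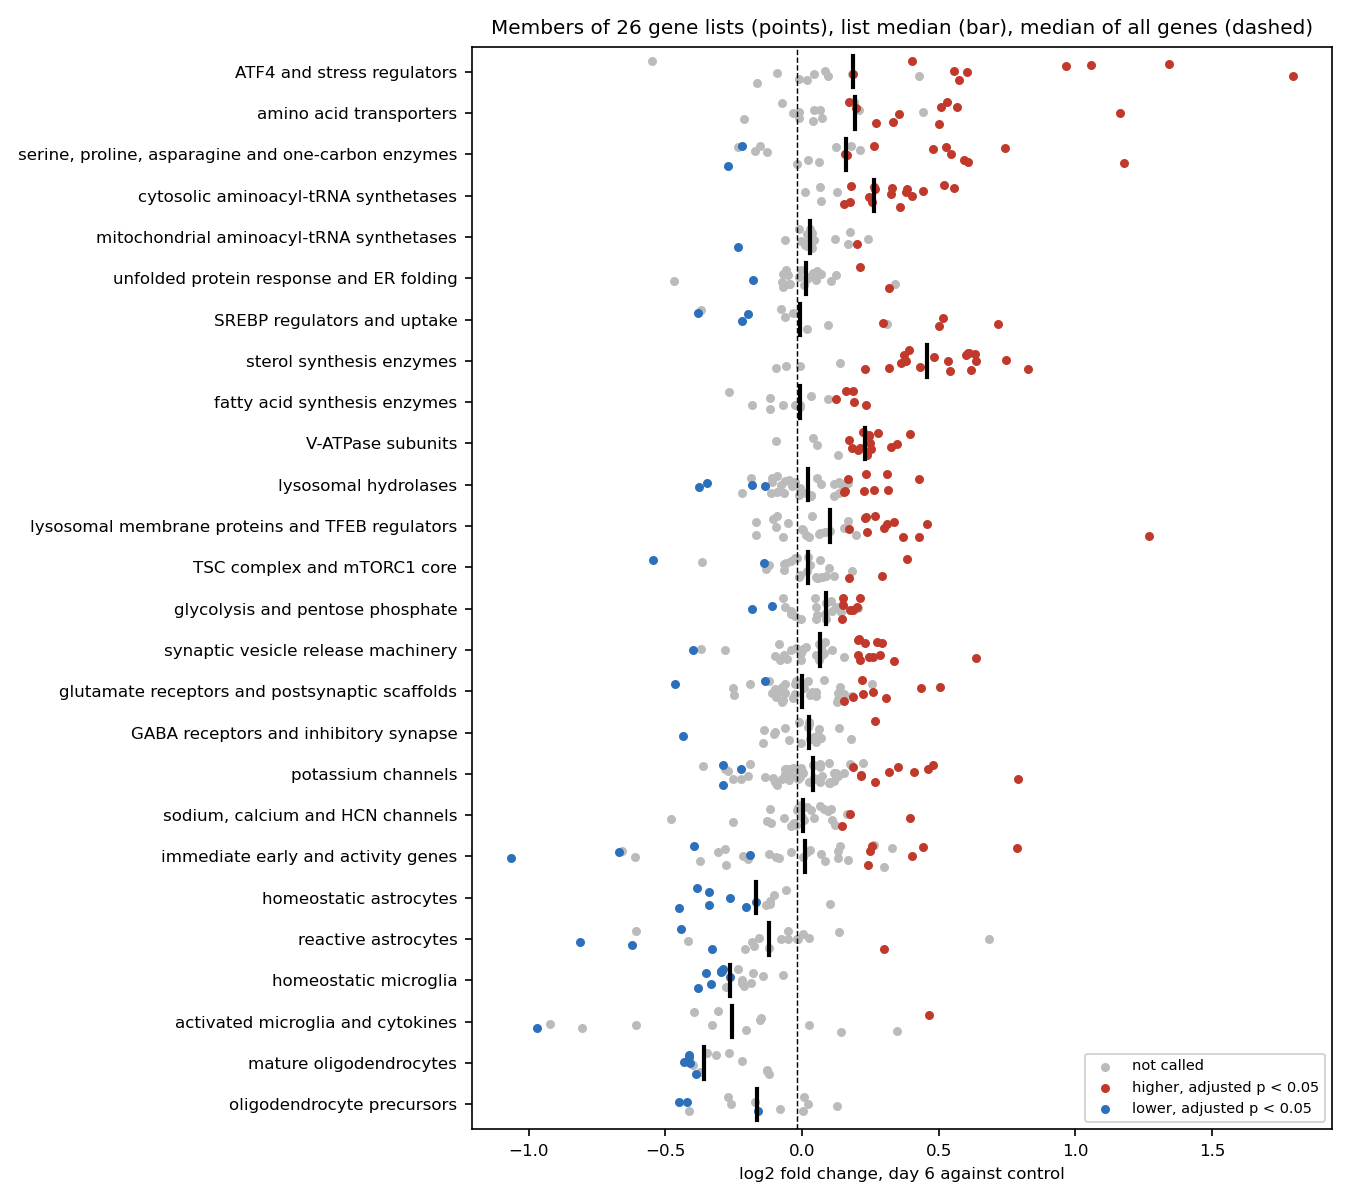
The log2 fold change on day 6 against control (x axis) of each member of 26 gene lists (points, coloured by call), with list medians as black bars and the median of all genes dashed. Sterol enzymes have the highest median (0.46) and mature oligodendrocytes the lowest of the 26 (−0.36).

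Of 93 nuclear genes of the respiratory chain and ATP synthase 45 rose and none fell, with a median of 0.15, and Cox5a was the only one that was DE (0.65 ± 0.07, adjusted p = 8e-05). Of 10 mitochondrially encoded genes none was called by edgeR or DESeq2, 2 had an unadjusted p under 0.05, and the median was −0.14. Of 28 genes of glycolysis and the pentose phosphate path 7 rose and 2 fell. Those that rose included Pgk1 (0.21), Ldha (0.20), Pgam1 (0.19) and Tpi1 (0.18). Those that fell were Aldoc, an astrocyte aldolase (by 0.18), and Ldhb (by 0.11). Cytosolic ribosomal protein genes had 6 higher and 6 lower of 80. For all lists of this paragraph, the shares over all genes were 6.24% higher and 3.81% lower. Among 13 heat shock chaperones 4 rose, led by the mitochondrial pair Hspe1 (0.35) and Hspd1 (0.28).

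Over the 6 synapse and channel lists 40 of 226 tested genes rose and 11 fell, where 6.24% of all genes rose and 3.81% fell, with a median of 0.02. With Xist as a covariate 19 rose, without day 6 mouse C 25 did, and with a correction for GC content 30 did. Of 36 genes of the vesicle release machinery 12 rose and 1 fell. Syn1, a phosphoprotein that ties vesicles to actin, went from 148, 137, 157 and 124 CPM to 210, 219, 234 and 216 CPM (0.64 ± 0.06, adjusted p = 4.4e-05). Its exons overlap those of Araf on the opposite strand. The other rises were 0.20 to 0.34 in size, among them Syn3, Slc17a7, the vesicular glutamate transporter, Bsn, Unc13a and Sv2a. Doc2b, a calcium sensor of spontaneous release, fell by 0.40, with day 6 mouse D (72.1 CPM) inside the control range.

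Of 44 glutamate receptor and postsynaptic genes 8 rose and 2 fell. Grik5, a kainate receptor subunit, was the only DE member, at 134, 122, 129 and 116 CPM in the controls and 164, 175, 193 and 180 CPM on day 6 (0.51 ± 0.05, adjusted p = 8.2e-05). The scaffolds Shank1 (0.44) and Shank3 (0.22), the AMPA receptor partner Cnih2 (0.31) and the synaptic gene Shisa9 (0.22) rose. Shank3 was not called in 5 of 18 alternative fits and Cnih2 in 4, among them those with a correction for GC content. Shank1 was lower on day 6 than on day 4, by 0.25 (adjusted p = 0.030 by edgeR). Cacng5 fell by 0.46 and Grin2c by 0.13, and Grin2c was not called in 14 of 18 alternative fits, among them all 8 that left out 1 mouse. The main AMPA and NMDA subunits Gria1 (0.01), Gria2 (−0.08), Grin1 (0.13), Grin2a (−0.02) and Grin2b (−0.01) were not called. Of 21 genes of inhibitory synapses, Nlgn2 rose (0.27) and Gabrg1 fell (by 0.43), against 6.24% and 3.81% of all genes.

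Of 63 potassium channel genes 10 rose and 3 fell, where 6.24% of all genes rose and 3.81% fell. Kcnk12, a two-pore channel subunit, was the only DE member, at 4.56, 4.3, 6.94 and 5.66 CPM against 8.40, 10.4, 9.96 and 8.39 CPM (0.79 ± 0.14, adjusted p = 0.0029). The Kv3 channel genes Kcnc4 (0.48) and Kcnc1 (0.19) rose, while Kcnj2 (by 0.29), Kcnn3 (by 0.29) and Kcnk9 (by 0.22) fell. Of 28 sodium, calcium and HCN channel genes 3 rose, Hcn3 (0.39), Cacna1a (0.18) and Cacnb1 (0.14), and none fell. Hcn3, whose groups overlapped, was not called in 11 of 18 alternative fits, Cacna1a in 10 and Cacnb1 in 11. Scn1a was at −0.12 and Scn2a at −0.04, neither called.

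Activity genes went both ways, with 6 of 34 higher and 4 lower, where 6.24% of all genes were higher and 3.81% lower. Npas4, an early gene of neuronal firing, was at 11.2, 6.16, 7.82 and 6.83 CPM in the controls and at 3.52, 4.44, 4.09 and 3.21 CPM on day 6. Every day 6 mouse was below every control, and the level fell by 1.065 (SE 0.17, adjusted p = 0.0017). Jun went the other way, from 52.1, 57.3, 66.4 and 57.5 CPM to 97.2, 100.4, 98.9 and 106 CPM (0.79 ± 0.06, adjusted p = 1.1e-05). Fosb fell by 0.67 and Ptgs2 by 0.40, whereas Scg2, a secreted granin (0.44), Fosl2 (0.40) and Bdnf (0.24) rose. Fos (−0.37), Arc (−0.28), Egr1 (−0.20) and Nr4a1 (−0.22) were below 0 and were not called.

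**Figure D3:**
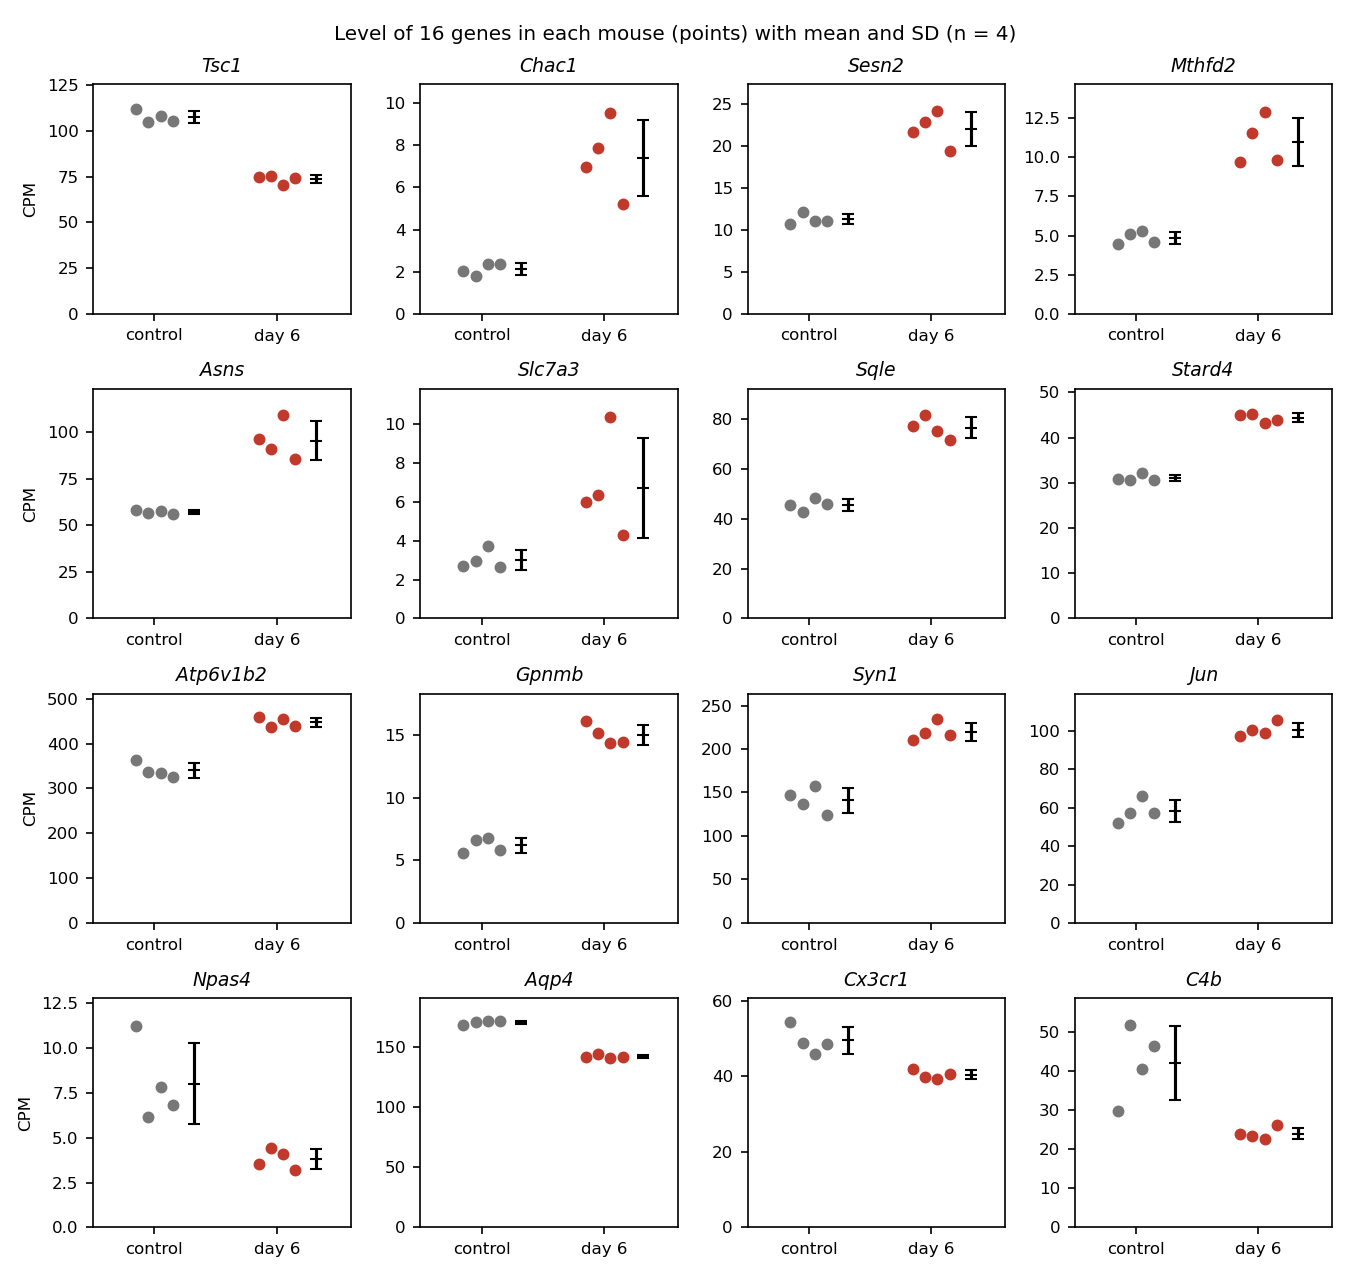
CPM of 16 genes in each mouse (points; grey, 4 controls; red, 4 day 6 mice) with mean and SD beside them, each y axis starting at 0. In all 16 panels the day 6 points lie wholly above or wholly below the control points. The 16 were picked from called genes, and called genes with overlapping groups, such as Trib3 and Doc2b, are not drawn. Over all genes tested, 15.9% had groups that did not overlap. The log2 fold change between the groups was over 1 in size for Chac1, Mthfd2, Slc7a3, Gpnmb and Npas4, while the nearest points of the 2 groups can lie closer.

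Among glial genes falls outnumbered rises. Over the 6 lists for glia 28 of 91 tested genes fell and 2 rose, where 3.81% of all genes fell and 6.24% rose, with a median of −0.22. With Xist as a covariate 16 fell, and in edgeR on all 24 libraries 1 did. Without 1 mouse, 15 fell when day 6 mouse B was left out, 17 without day 6 C, 18 without day 6 D or control D, and 19 without day 6 A. Of 13 markers of homeostatic (resting) astrocytes 7 fell and none rose. Aqp4, the water channel of astrocyte endfeet, was at 169, 171, 172 and 172 CPM in the controls and at 142, 144, 141 and 142 CPM on day 6 (fell by 0.26, SE 0.03, adjusted p = 1.5e-04). Its low level was not particular to day 6. On the 24-library scale Aqp4 was at 122 ± 28 CPM (SD, n = 4) on day 4 and 101 ± 8.8 CPM in rapamycin-treated mice. Gja1 was at 161 ± 16 CPM on day 4 and, near its control level of 177 ± 6.9 CPM, at 173 ± 11 CPM with rapamycin. S100b fell by 0.45, Gja1 by 0.34 and Aldh1l1 by 0.34. Of the glutamate carriers of astrocytes, Slc1a3 fell by 0.20 and Slc1a2 (−0.12) was not called. The difference between these carriers was not tested. Of 21 genes of reactive astrocytes 4 fell and 1 rose. C4b, a complement gene, went from 29.7, 51.8, 40.5 and 46.3 CPM to 23.9, 23.3, 22.6 and 26.1 CPM (fell by 0.81, SE 0.13, adjusted p = 0.0014), and Gfap fell by 0.33. Aspg fell by 0.62 with groups that overlapped, and Serpina3n rose (0.30, adjusted p = 0.048) and was not called in 11 of 18 alternative fits, 5 of which left out 1 mouse.

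Of 17 markers of homeostatic microglia 8 fell, all 17 had negative fold changes, and the median was −0.26. Cx3cr1, the fractalkine receptor, was at 54.4, 48.9, 45.9 and 48.6 CPM in the controls and at 41.9, 39.7, 39.4 and 40.6 CPM on day 6 (fell by 0.29, SE 0.05, adjusted p = 0.0032). The complement genes C1qa (by 0.38), C1qb (by 0.35) and C1qc (by 0.33) fell as well. The list's median was −0.19 within the mice with high Xist and −0.37 within those with Y-linked counts, ratios that each have 1 mouse on one side and no test. Of 19 genes of activated microglia and cytokines 14 could be tested. Clec7a fell by 0.97 to 0.316 to 0.497 CPM, and Lpl rose (0.46). Ccl2, Ccl3, Ccl4, Tnf and Cxcl10 had too few counts to be tested.

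Mature oligodendrocyte markers had the lowest median of all glial lists, −0.36, with 5 of 14 called lower and all 14 below 0. Yet no member's groups were apart, against 15.9% of all genes tested. Cnp was at 196, 305, 239 and 295 CPM in the controls and at 179, 205, 199 and 207 CPM on day 6, so control A lay among the day 6 mice. Within the mice with high Xist the list's median was −0.51 and within those with Y-linked counts it was 0.14, each with 1 mouse on one side and no test. With Xist as a covariate none of the 14 was called, without control A 12 were, without control C 2, without day 6 A 1, and without any other single mouse 0. Of 12 precursor markers 3 fell, Neu4 (by 0.45), Gpr17 (by 0.42) and Pdgfra (by 0.16), beside 3.81% of all genes.

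Some vessel genes and every listed blood gene fell. Of 12 endothelial markers 3 fell, and all 5 genes of red blood cells fell, beside 3.81% of all genes. Hbb-bs, a β-globin, was at 31.8, 31.1, 43.5 and 34.6 CPM in the controls and at 15.1, 20.8, 18.2 and 23.2 CPM on day 6 (fell by 0.87, SE 0.12, adjusted p = 8.6e-04). The summed level of blood genes was 60.2 to 77.3 CPM in the controls and 35.5 to 47.0 CPM on day 6. Globin copies are close in sequence, and the counting could split reads between them. Thalamus markers had 3 of 8 tested members lower (Tnnt1, Ramp3 and Prkcd), with a summed level of 121 to 307.5 CPM in the controls, highest in control D, and 107.9 to 127.8 CPM on day 6. Tnnt1 fell by 2.08, and without control D it stood at −0.82 and was not called. Of 9 choroid plexus markers none was called by edgeR or DESeq2, and 0 had an unadjusted p under 0.05.

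Of 46 markers of hippocampal neurons, interneurons, immature neurons and cycling cells 3 rose and 1 fell, beside 6.24% and 3.81% of all genes. Of 12 interneuron markers none was called by edgeR or DESeq2, 4 had an unadjusted p under 0.05, and the median was −0.04. Of 19 markers of dentate granule and CA1 to CA3 pyramidal cells, 3 rose, Tdo2 (0.57), Lct (0.48) and Pou3f1 (0.46), and 1 fell, Plk5 (by 0.27). Glucocorticoid response genes had no called member among 11 in edgeR, with 3 at an unadjusted p under 0.05, and 3 called by DESeq2. Per3 (fell by 0.32) was the only one called of 16 clock genes.

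**Figure D4:**
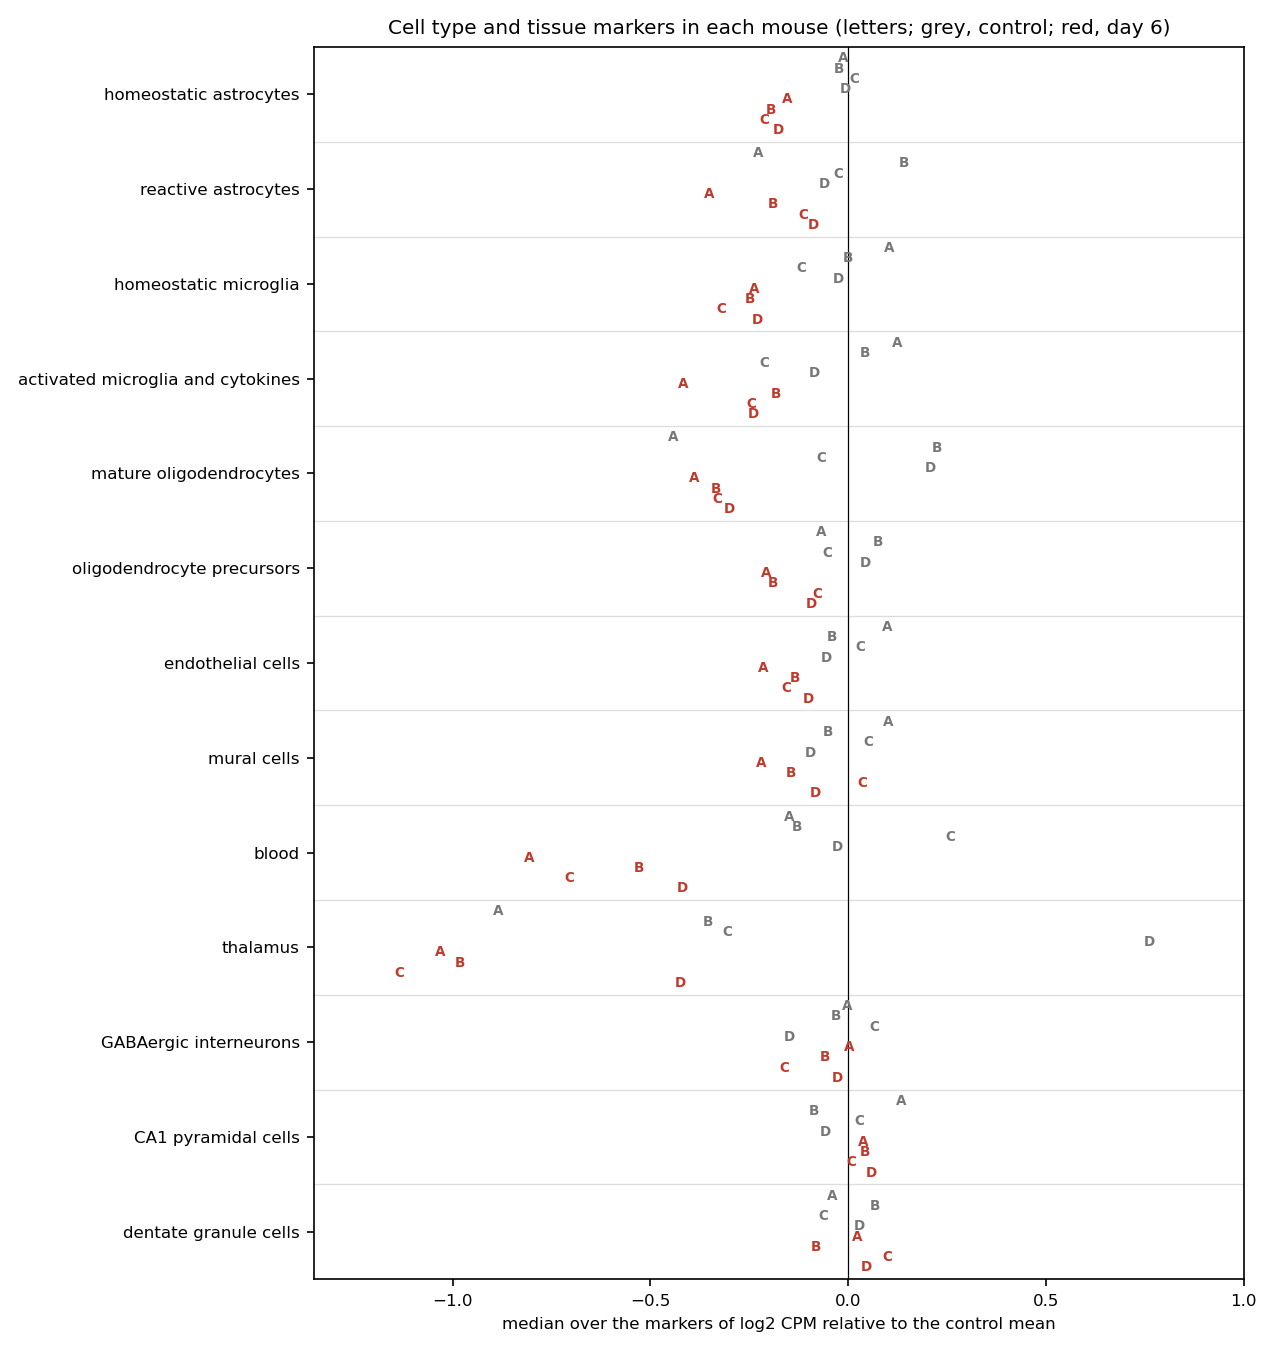
Median over the markers of each cell type or tissue of log2 CPM relative to the control mean (x axis), for each mouse (letters A to D, stacked within a row; grey, control; red, day 6). Homeostatic astrocyte, homeostatic microglia and blood markers are lower in all 4 day 6 mice than in all 4 controls, while for mature oligodendrocytes control A lies below the day 6 mice and for thalamus control D lies far above the rest.

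Over all protein-coding DE genes with a mean of at least 1 CPM and groups that did not overlap, the largest rises were Esr1, Gm8369, Arsi and Rgs13. Esr1, the estrogen receptor, went from 2.66 to 4.05 CPM in the controls to 27.5 to 32.6 CPM on day 6 (3.25 ± 0.12, adjusted p = 5e-09). The transgene holds an estrogen receptor domain, and Arsi, an arylsulfatase gene (2.61 ± 0.12), lies beside Camk2a on chromosome 18. What the transgene gives to both counts was not tested. Neither gene differed from day 4 beyond the threshold (log2 differences 0.03 and 0.16). Rgs13, a brake on G protein signalling, went from 0.45, 0.546, 0.53 and 0.548 CPM to 1.71, 2.65, 2.40 and 2.20 CPM (2.11 ± 0.18, adjusted p = 1.9e-05). Gm8369, a predicted gene, rose by 3.17 from 0.205 to 0.337 CPM. The others of the 12 were Chac1, Scand1 (1.76), the serine protease gene Htra4 (1.52), C2cd4a (1.41), Gpnmb, Mthfd2, the stress hormone gene Stc2 (1.18) and Slc7a3. Of these 12, 4 belong to the amino acid lists or to the lysosome list already described.

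By the same rule the largest falls were Ramp3, Ackr2, Mndal, BC030499, Prkcd, Npas4, Spag5, Cfap57, Hbb-bs, Ppl, C4b and Ifi203. Ramp3 and Prkcd are thalamus markers that were highest in control D. Ramp3 was at 1.39, 1.96, 2.7 and 8.49 CPM in the controls and at 1.12 to 1.38 CPM on day 6, fell by 1.54, and without control D stood at −0.70 and was not called. It was also not called without any 1 of the 4 day 6 mice. Prkcd fell by 1.24 and, without control D, by 0.66, and it was not called without day 6 mouse B or without day 6 mouse C. Spag5, a spindle protein gene, went from 13.7, 13.1, 15.4 and 14.8 CPM to 7.69, 6.43, 7.23 and 6.73 CPM (fell by 1.02, SE 0.08, adjusted p = 1.2e-05). BC030499 fell by 1.34, Ackr2, a chemokine scavenger receptor, by 1.53, Mndal by 1.48 and Ifi203 by 0.80. Mndal and Ifi203 are neighbouring genes of the interferon-inducible HIN-200 family that share exons, so the counts of either are uncertain. Ppl, a desmosomal linker gene, fell by 0.83 and Cfap57, a gene of motile cilia, by 0.99.

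Day 6 was also set against the 4 Tsc1-Cre+ mice of day 4, a comparison that shares the day 6 libraries with the one above. Of 25184 genes tested, 588 were higher on day 6 (2.33%) and 454 lower (1.8%). Of the 22 sterol enzymes 17 were higher than on day 4 and none lower, with a median log2 difference of 0.54. Of the 20 cytosolic synthetases 12 were higher, of the 18 V-ATPase subunits 7, of the 19 ATF4 and stress regulators 4, and of the 93 respiratory chain genes 27. Chac1 differed from day 4 by 1.54 (adjusted p = 1.8e-04), Mthfd2 by 1.05 (6.2e-04) and Sqle by 0.76 (2.1e-04). Rgs13 differed by 1.95 (2.4e-04).

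For other genes the difference from day 4 missed the threshold. Syn1 differed between day 6 and day 4 by 0.08 (adjusted p = 0.43), Grik5 by −0.05 (0.67), Gpnmb by 0.16 (0.65), Flcn by 0.06 (0.47), Spag5 by −0.15 (0.51) and Npas4 by −0.33 (0.23). On the 24-library scale Syn1 was at 138 ± 14 CPM (SD, n = 4) in controls, with 203 ± 14 CPM in day 4 mice and 217 ± 11 CPM in day 6 mice. Hbb-bs differed from day 4 by −0.02 (adjusted p = 0.96). Of 17 homeostatic microglia markers none passed the threshold between day 6 and day 4, while 6 of 13 homeostatic astrocyte markers were lower on day 6. Of 11 glucocorticoid response genes 6 were lower than on day 4, with a median of −0.71. These values moved with the same comparison, and their part in it was not tested.

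Later groups are given as levels only. Chac1 was at 2.09 ± 0.27 CPM (SD, n = 4) in controls, 2.49 ± 0.16 CPM in day 4 mice and 7.30 ± 1.8 CPM in day 6 mice. The day 8 mice had 24.4 ± 8.2 CPM and the day 13 mice 36.3 ± 20 CPM. In the mice given 10 mg/kg rapamycin daily from day 4 it was at 1.81 ± 0.53 CPM on day 13. Gfap, at 152 ± 9.6 CPM on day 6, had 467 ± 385 CPM in day 8 mice and 729 ± 450 CPM in day 13 mice. The rapamycin-treated mice had 111 ± 10 CPM of Gfap on day 13. Day 6 thus stood below the mean of the controls (190 ± 21 CPM) and of the untreated day 8 and day 13 mice for this gene, and above the mean of the rapamycin-treated mice.

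**Figure D5:**
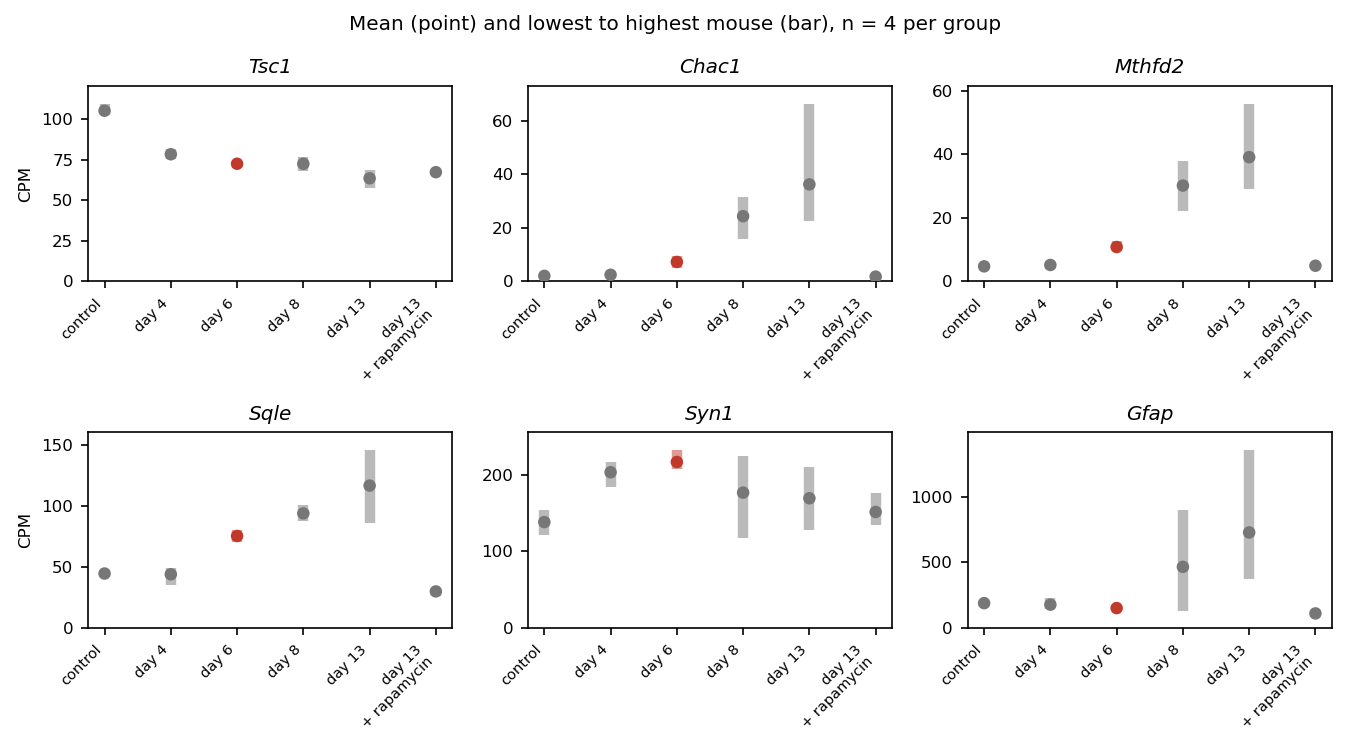
CPM (y axis, from 0, scaled over all 24 libraries) of 6 genes in the 6 groups, with the mean as a point and the lowest to highest mouse as a bar; day 6 is red. Chac1, Mthfd2 and Sqle are higher on day 6 than in control and day 4 and higher still on days 8 and 13, while Syn1 lies near its day 6 mean on day 4 and the Gfap mean is lower on day 6 than in control.

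Calls of 9 further genes named above were lost in 9 or more of the alternative fits run for them, namely Aars2, Hsp90b1, Lgmn, Fosb, Eif4ebp2, Aldoc, Ldhb, Clec7a and Cnp, and those genes are less certain.

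The authors' counting is not stated to use strand, so genes whose exons overlap a gene on the other strand are less certain. Among those named here, this concerns Psph (with Cct6a), Shmt1 (Smcr8), Fdft1 (Ctsb), Srebf1 (Rai1), Acss2 (Ggt7), Syn3 (Timp3), Akt1s1 (Tbc1d17), Cnp (Dnajc7) and Atf5 (Nup62).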

How the data were processed

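Groups and replicate letters came from the sample titles. The authors trimmed paired 76-base reads with cutadapt (quality 20, reads under 50 bases removed), mapped them to GRCm38 (STAR) and obtained counts for GENCODE M24 genes (featureCounts). The deposited values are whole-number counts without normalization, for 55385 gene identifiers, of which 44657 had a count in any library. The strand setting is not given in the sources used here. Names came from GENCODE M21 (55144 identifiers found), and promoters from RefSeq.

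The counts were tested with edgeR 4.0.16 (quasi-likelihood test, filterByExpr, TMM, Benjamini-Hochberg adjustment) in R 4.3.3 on the 8 libraries. The threshold for a call was an adjusted p of 0.05, and DE also needed a log2 fold change over 0.5 in size. Single values used the exact two-sided permutation test over 70 arrangements. The biological coefficient of variation was 10.5%. On simulated counts for day 6 against control over 24650 genes, the test recovered 66% of genes changed 1.5-fold and 95% of those changed 2-fold, and called 10 unchanged genes. At the lowest total, 3 counts are 0.0594 CPM, a limit that covers counting error only. The alternatives were DESeq2 1.42.0, all 24 libraries in 1 fit, DESeq2 size factors, no filter, a replicate block, Xist, Ttr and GC corrections and each mouse left out. Ratios within mice with high Xist or with Y-linked counts were an alternative chosen after seeing the data.

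The members and the 48 gene lists were chosen with earlier results of these data known. Named were Tsc1, every DE member of a list, up to 4 further called members per direction in the amino acid, sterol, lysosome, synapse, mTORC1 and glia lists, and the 12 largest rises and falls among protein-coding DE genes with a mean of at least 1 CPM and groups that did not overlap. Members named beside these, such as regulators that were not called, were chosen after their values were seen. Results for some list members are not reported here, though they stay in the counts of their lists.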

Additional observations from a re-analysis of the deposited data

Results flagged for a closer look

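In 26 of 406 groups of 4 mice looked at, 1 mouse stood apart from the other 3 by a gap above Dixon's 95% critical value, and chance alone flags about 1 group in 20. Control A stood apart most often for summed lists, with 3092 CPM for V-ATPase subunits against 2920 to 2940 CPM, 15900 CPM for glutamate receptors and scaffolds against 14020 to 14220 CPM, 7048 CPM for sodium, calcium and HCN channels against 6470 to 6569 CPM, and 488.3 CPM for CA1 markers against 404.5 to 410.9 CPM. It was also high for Unc13a (557.8 CPM, others 491.5 to 497.9) and low for Srebf1 (60.2 CPM, others 72.2 to 74.5), Flcn (43.4 CPM, others 46.8 to 47.1) and Herpud1 (25.2 CPM, others 28 to 28.4). Control A is the control with Y-linked counts.

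Control D was high for the thalamus genes Prkcd (89.2 CPM, others 27.7 to 30.7) and Tnnt1 (6.44 CPM, others 0.682 to 1.19) and low for Srebf2 (125.6 CPM, others 142 to 144.8) and C2cd4a (0.411 CPM, others 0.769 to 0.836). Control B was high for summed choroid plexus markers (1756 CPM, others 63.2 to 83.3) and Gpr17 (39.4 CPM, others 36.0 to 36.5) and low for Neu1 (37.2 CPM, others 40.8 to 41.0) and Atp6v0b (78.6 CPM, others 80.0 to 80.1). Control C was high for Stard4 (32.1 CPM, others 30.6 to 30.8).

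Among day 6 mice, mouse C was low for Tsc1 (70.4 CPM, others 74.4 to 75.1) and high for Iars (87.1 CPM, others 80.5 to 80.8) and Cacna1a (337.7 CPM, others 308.1 to 310.5). Mouse D was high for Doc2b (72.1 CPM, others 58.4 to 59.8) and Aspg (2.04 CPM, others 1.47 to 1.56) and low for Pgam1 (67.9 CPM, others 71.6 to 72.2). Mouse A was high for Glul (1103 CPM, others 1075 to 1079) and low for Ldhb (146.5 CPM, others 153.7 to 154.3), and mouse B was high for Arsi (10.7 CPM, others 9.83 to 9.96).

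The Tsc1-Cre+ groups of days 6 and 4 differed in edgeR's test of that difference for 29 of 124 members of the amino acid lists, 28 of 51 sterol genes, 12 of 89 lysosome genes, 19 of 226 synapse genes, 16 of 91 glial genes and 7 of 57 genes of mTORC1 and glycolysis, beside 2.33% higher and 1.8% lower over all genes.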

How the results depend on the processing

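The fall of Tsc1 kept its direction and its call in every alternative, at −0.56 to −0.53 when 1 mouse was left out and −0.61 within the mice with Y-linked counts. Genes called on day 6 against control (2519) numbered 292 in edgeR on all 24 libraries, 847 in DESeq2 on all 24 and 1311 with Xist as a covariate, and those that were DE (332) numbered 84, 132 and 196. They were 86 at a log2 fold change over 1, and 2519 with no fold minimum. Against day 4, 1042 calls became 1901 in DESeq2 on the same 8 libraries, 36 in edgeR on all 24 and 582 with a replicate block, and 152 DE genes became 19 in edgeR on all 24. In edgeR on all 24 libraries the members higher were 15 of amino acid stress (48 in the test reported), 10 of sterols (27), 13 of lysosome (35) and 5 of synapse (40), and 1 of glia was lower (28). DESeq2 on all 24 gave 26 for amino acid stress, 11 for synapse and 2 for glia, and Xist as a covariate 19 for synapse and 16 for glia. The causes were not tested.

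Leaving out 1 mouse gave 1473 to 2936 calls and 217 to 429 DE genes against control, 464 to 1326 and 98 to 221 against day 4, 41 to 48 members for amino acid stress, 24 to 27 for sterols, 29 to 35 for lysosome, 25 to 52 for synapse and 15 to 35 for glia. Against day 4 the calls fell most without day 6 mouse C (464) and day 4 mouse C (527). Of 155 named genes, 3 were not called in DESeq2 on the 8 libraries, 42 with Xist and 110 in edgeR on all 24. Within the mice with Y-linked counts, 1 control against 3, the log2 ratio was above 0 for Srebf1 (0.0267), Ermn (0.00081), Cnp (0.0593), Aspa (0.0599) and Mal (0.15). The replicate letters did not pair the mice, since same-letter correlations of deviations were 0.077, 0.237, −0.151 and −0.225 for A to D, and a replicate block gave 2140 calls against control. Depth limits only genes near the floor of 3 counts.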
